A study of Mus musculus with 4 samples.

Results

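Cycling alveolar epithelial cells were taken as the cells with at least 5 unique molecular identifiers (UMIs, each a counted transcript molecule) summed over 10 cell-division genes: Mki67, Top2a, Cdk1, Birc5, Ccnb1, Ccnb2, Ccna2, Cenpf, Ube2c and Tpx2. Each also had an alveolar mark, either Sftpc at 2% or more of its UMIs or at least 1 UMI of Cldn4, and 0 UMIs of Ptprc, Pecam1 and Col1a2, which mark leukocytes, endothelium and fibroblasts. The rule found 139 of 10077 cells. Null PNX gave 121 of them, control PNX 15, null sham 0 and control sham 3. They were set beside the non-cycling alveolar cells of the same library, which met the same alveolar rule and had 0 UMIs of the 10 genes. Null PNX held 1262 non-cycling cells, control PNX 1885, null sham 2563 and control sham 1621. The cells were thus selected on their measured counts of these genes, and every contrast of cycling with non-cycling cells below is a description.

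The study sorted GFP+ alveolar type II (AT2) cells of mice and compared loss of Cdc42, a small GTPase of actin and cell polarity, with and without pneumonectomy (PNX), the removal of part of the lung. Null PNX and null sham mice carried 1 floxed and 1 null allele of Cdc42 (Cdc42flox/-), and control PNX and control sham mice 1 floxed and 1 normal allele (Cdc42flox/+). All 4 groups had the Sftpc-CreER driver, which acts in cells that express surfactant protein C, the Rosa26-mTmG reporter and 4 doses of tamoxifen, and all were labelled postnatal day 80, which may be the age at surgery or at collection. PNX libraries were taken on day 21 after surgery. Each group was 1 library, the sources used here do not say how many mice were pooled in it, and no difference between groups has a replicate check. All intervals are exact 95% intervals and cover counting error only.

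AT2 cells make surfactant and also divide to renew the alveolar surface, where their progeny can pass through a transitional state marked by Krt8 and Cldn4 before they become flat AT1 cells. A dividing cell copies its DNA in S phase with the Mcm helicase, PCNA and enzymes that make nucleotides, then enters mitosis under cyclin B and Cdk1. Many genes of late division carry CCAAT boxes and a CHR element in their promoters. Through the CHR element the DREAM complex holds these genes down in resting cells, and B-MYB and FOXM1 raise them later in the cycle.

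To show what the genes of the rule share in sequence, promoters of 4 of them are printed, each 300 bases from 250 before to 50 after the annotated start, from RefSeq on GRCm38.p6. Capitals mark CHR-type hexamers (TTTGAA, its reverse complement TTCAAA, or TTTAAA) and CCAAT boxes (CCAAT or its reverse complement ATTGG). Ccnb2 and Cdk1 encode cyclin B2 and the mitotic kinase it binds, Ube2c the ubiquitin-conjugating enzyme that the anaphase-promoting complex uses, and Birc5 survivin, of the chromosomal passenger complex. They lie at chr9:70421505-70421804 (minus strand), chr10:69352863-69353162 (minus strand), chr2:164769679-164769978 (plus strand) and chr11:117848987-117849286 (plus strand).
Ccnb2: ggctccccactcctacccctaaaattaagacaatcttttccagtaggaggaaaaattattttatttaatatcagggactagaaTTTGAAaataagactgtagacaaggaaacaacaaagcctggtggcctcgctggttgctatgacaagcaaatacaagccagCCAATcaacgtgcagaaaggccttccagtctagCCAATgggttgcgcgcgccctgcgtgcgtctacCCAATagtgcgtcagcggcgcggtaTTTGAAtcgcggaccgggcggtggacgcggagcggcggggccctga
Cdk1: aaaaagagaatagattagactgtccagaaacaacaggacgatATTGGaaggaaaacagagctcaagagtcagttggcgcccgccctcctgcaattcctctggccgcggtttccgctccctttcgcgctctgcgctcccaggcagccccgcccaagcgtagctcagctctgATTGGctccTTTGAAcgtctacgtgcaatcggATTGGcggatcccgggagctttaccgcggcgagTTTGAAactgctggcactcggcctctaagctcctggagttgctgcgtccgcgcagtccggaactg
Ube2c: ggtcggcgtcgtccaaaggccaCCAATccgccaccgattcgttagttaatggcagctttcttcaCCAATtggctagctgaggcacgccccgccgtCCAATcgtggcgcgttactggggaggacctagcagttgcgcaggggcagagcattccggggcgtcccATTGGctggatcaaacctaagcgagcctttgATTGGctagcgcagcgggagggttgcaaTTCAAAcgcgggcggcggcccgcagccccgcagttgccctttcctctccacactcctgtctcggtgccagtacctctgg
Birc5: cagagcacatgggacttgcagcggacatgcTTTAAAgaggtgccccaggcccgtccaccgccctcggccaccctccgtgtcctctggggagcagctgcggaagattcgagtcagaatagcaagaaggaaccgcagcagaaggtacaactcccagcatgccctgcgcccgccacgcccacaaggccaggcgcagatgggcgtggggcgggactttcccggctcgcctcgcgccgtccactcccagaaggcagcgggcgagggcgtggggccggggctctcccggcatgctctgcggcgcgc
Promoters of 8 of the 10 genes were matched, with Ccna2 and Tpx2 not matched. All 8 held a CHR-type hexamer, against 27.8% of 27025 promoters of the same length, and 7 held at least 2 CCAAT boxes, against 11.99% of all. Birc5 held 0 CCAAT boxes in this window, and its TTTAAA stood 220 bases before the start. Among promoters of mitosis genes outside the rule, 32 of 46 (69.6%) held a CHR-type hexamer. Among those of S-phase genes the figure was 10 of 38 (26.3%), near that of all promoters, while 15 of 38 (39.5%) held at least 2 CCAAT boxes. A match of letters is a description of the window and not evidence of binding.

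The libraries differed in depth. The median cell held 9705.5 UMIs for null PNX, 4713 for control PNX, 4844.5 for null sham and 4503 for control sham, and a fixed count of UMIs is met more easily by deeper cells. Cycling cells were deeper than non-cycling cells of the same library, with medians of 13737 against 9741 UMIs in null PNX, 6105 against 4787 in control PNX and 7768 against 4745 in control sham. No doublet caller was run, and 24 of the 121 null PNX cycling cells (19.8%) lay above the 95th percentile of UMIs of that library's alveolar cells, 22742. Barcodes were shared between libraries by 108 cells, 2 of them cycling cells of null PNX. Cdc42 itself had 502 CPM (UMIs summed over the cells of a group and scaled to a common total) in cycling against 382 CPM in non-cycling cells of null PNX. Its levels were 234 against 225 CPM in control PNX and 336 against 182 CPM in control sham, with 264 CPM in non-cycling cells of null sham. These are 3′ tags and the floxed exon is not given in the labels, so they do not check the deletion.

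Cycling cells made up 121 of 1858 alveolar cells of null PNX, or 6.51% (5.43 to 7.73). In control PNX they were 15 of 1972 cells, or 0.761% (0.426 to 1.25). In null sham they were 0 of 2630 cells, which by a floor of 3 cells allows a share of up to 0.114%, and in control sham 3 of 1669, or 0.180% (0.0371 to 0.524). Null PNX was thus above the other libraries by more than the counting error, and control PNX and control sham had overlapping intervals. With every alveolar cell thinned to 2500 UMIs and a sum of at least 2 asked for, the share was 5.44% (4.45 to 6.57) for null PNX and 0.884% (0.506 to 1.43) for control PNX, with 0.0421% (0.00107 to 0.234) for null sham and 0.269% (0.0734 to 0.688) for control sham. Thinning left out 0, 162, 255 and 183 shallower cells in the same order.

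**Figure D1:**
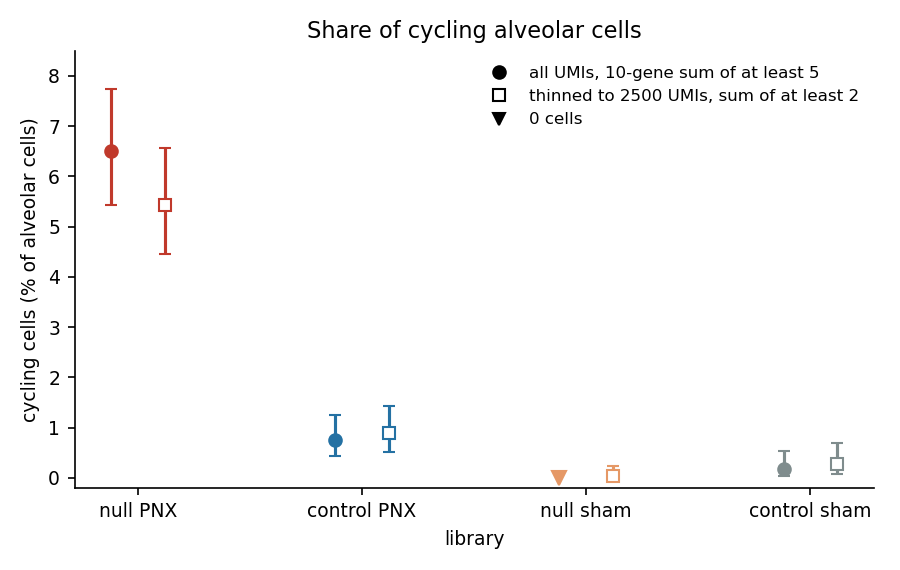
Share of alveolar cells that were cycling (y axis, %) in each library (x axis), with all UMIs (filled) and after thinning to 2500 UMIs (open), with exact 95% intervals; the triangle marks 0 cells. Null PNX is at 6.51% and 5.44%, and every other point is at 0.884% or below.

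The threshold cut through a continuous range in null PNX. There 17 cells had a sum of exactly 5 and lay just inside, 20 cells had 4 and lay just outside, and 475 cells in all had 1 to 4 UMIs. Of the 121 cycling cells, 59 had sums of 5 to 9 and 62 had sums of 10 or more, up to 149. Control PNX had 0 cells with a sum of 4 and 2 with a sum of 5, and its highest sum was 63. The 3 cells of control sham had sums of 22 to 38. At least 1 UMI of the 10 genes was seen in 32.1% of alveolar cells for null PNX, 4.41% for control PNX, 2.55% for null sham and 2.88% for control sham. Cells with Cd3e or Cd79a outside the alveolar rule, lymphocytes that may themselves divide, gave 15.6%, 1.56%, 9.23% and 10.0% at median depths of 3650, 3091, 2853 and 2787 UMIs. Because these lymphocytes may divide, their shares do not settle how far a single UMI marks a cell as cycling, and it was not taken as such. In the sham libraries the alveolar shares were below those of lymphocytes. Sums of 5 or more were found in 4 of 122, 1 of 64, 3 of 195 and 3 of 120 of these lymphocytes.

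The label was checked on 56 mitosis genes that the rule did not use. Their summed level exceeded the 99th percentile of non-cycling cells in 107 of 121 cycling cells of null PNX (88.4%), in 13 of 15 of control PNX and in 3 of 3 of control sham. The same held for 39 of the 475 null PNX cells with 1 to 4 UMIs (8.21%). Cells that rest on 1 gene were exceptions. Of 2 control PNX cells whose sum came from Cenpf alone, with 14 and 7 UMIs, each had 1 UMI of the mitosis genes. Of 2 such cells in null PNX, with 7 and 9 Cenpf UMIs, 1 and 6 mitosis UMIs were seen. Without the 4 cells the ratio of mitosis to S-phase UMIs, given below, was 2.20 in null PNX and 1.34 in control PNX.

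All 10 genes of the rule were counted in each library with cycling cells. Birc5, survivin, had 304 CPM (280 to 331) in null PNX cycling cells, 469 CPM (346 to 622) in control PNX and 611 CPM (373 to 944) in control sham, and was detected in 109 of 121, 11 of 15 and 3 of 3 cells. Of the 10 genes, cyclin B2 alone had a higher level in null PNX than in control PNX. Ccnb2 had 206 CPM (186 to 228) in null PNX, 156 CPM (89.3 to 254) in control PNX and 91.7 CPM (18.9 to 268) in control sham, and was seen in 98 of 121, 6 of 15 and 3 of 3 cells. Ccnb1 was at 88.0, 127 and 30.6 CPM in the same order. Ccna2, cyclin A2 of S phase and G2, was at 84.8, 205 and 244 CPM. Cdk1 had 140 CPM (123 to 158) in null PNX, 322 CPM (222 to 453) in control PNX and 336 CPM (168 to 601) in control sham.

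The proliferation marker Mki67 and the DNA topoisomerase Top2a, both in common use to mark dividing cells, were detected in 69 and 41 of the 121 null PNX cells. Top2a had 80.4 CPM (68.0 to 94.4) in null PNX, 264 CPM (174 to 384) in control PNX and 458 CPM (257 to 756) in control sham. Mki67 had 76.1, 244 and 214 CPM. No UMI of Mki67, Top2a or Cdk1 was seen in 32 of the 121 null PNX cells and in 2 of the 15 control PNX cells. Cenpf, a kinetochore protein, had 87.5 CPM in null PNX, 430 CPM in control PNX and 61.1 CPM in control sham, and 1 cell held 31.8% of the control PNX UMIs. Ube2c had 215, 313 and 733 CPM, and 1 cell held 62.5% of the control PNX UMIs. Tpx2, a spindle assembly factor, had 64.2, 137 and 91.7 CPM. Null PNX over control PNX, the ratio was 0.31 (0.20 to 0.48) for Top2a, 0.31 (0.20 to 0.50) for Mki67 and 0.20 (0.15 to 0.29) for Cenpf, and 1.32 (0.80 to 2.33) for Ccnb2, whose interval includes 1. For Cenpf, 14 and 7 of the 44 control PNX UMIs were in the 2 cells whose sum came from Cenpf alone. In null PNX such cells held 7 and 9 of 162, so the low Cenpf ratio rests in part on the control PNX cells. The rule set these levels, so the ratios are a description.

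**Figure D2:**
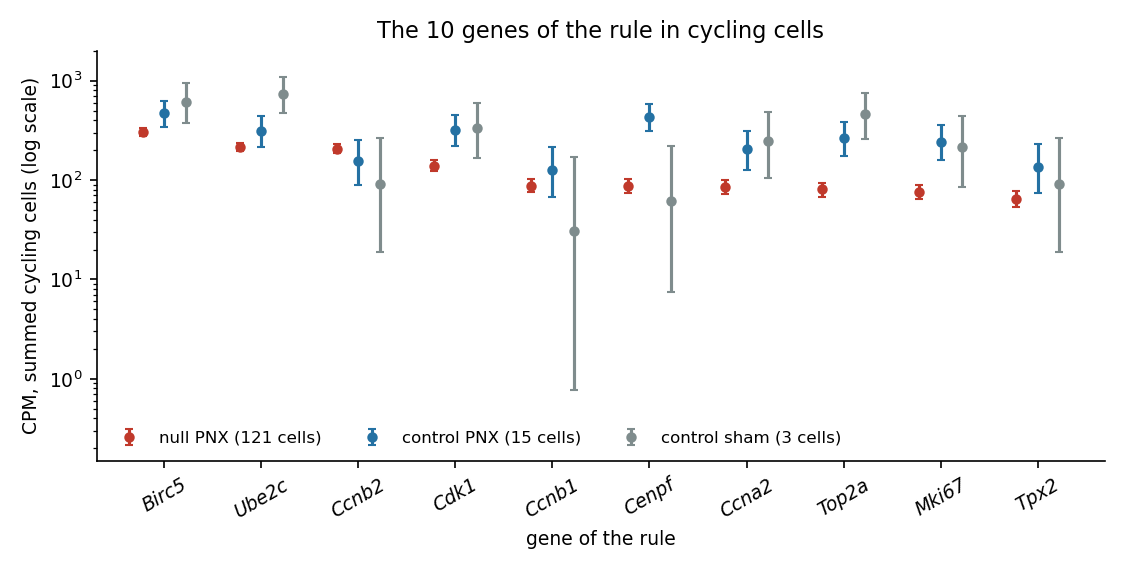
Summed CPM (y axis, log scale) of the 10 genes of the rule (x axis) in cycling cells of null PNX, control PNX and control sham, with exact Poisson 95% intervals; null sham had 0 cycling cells. Top2a stands at 80.4, 264 and 458 CPM and Ccnb2 at 206, 156 and 91.7 CPM.

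Outside the rule, the largest ratios of null PNX cycling to non-cycling cells were those of genes of division. Of 5142 genes whose mean of both sums reached 20 CPM, rule and admission genes left out, 159 were at least 2-fold higher in cycling cells (3.09%) and 53 at least 2-fold lower (1.03%), and the median log2 ratio of all was 0.06. Mitosis genes outside the rule, taken over all 56, summed to 4118 CPM (4026 to 4212) in cycling cells and 245 CPM (236 to 254) in non-cycling cells. In the same order, the 46 genes of DNA replication and S phase summed to 1873 CPM (1812 to 1937) and 436 CPM (424 to 447). Of 28 mitosis genes at or above 20 CPM 27 were at least 2-fold higher, and of 21 S-phase genes 20 were. These counts favour genes that are high in cycling cells, since most passed the filter on their level there.

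The genes with the largest ratios act in spindle assembly, chromosome separation and cytokinesis. Pbk, a mitotic kinase, had 81.5 CPM in null PNX cycling cells and 0.386 CPM in non-cycling cells. Cenpe, a kinesin that brings chromosomes to the spindle equator, had 42.1 against 0.309 CPM. For Cdc20, which activates the anaphase-promoting complex, the levels were 378 CPM (351 to 408) in cycling and 8.04 CPM (6.57 to 9.74) in non-cycling cells of null PNX, 137 against 3.61 CPM in control PNX and 91.7 against 2.41 CPM in control sham, with 2.20 CPM in non-cycling cells of null sham. Cycling cells were above non-cycling cells in each library that had both. Ratios between 48.7 and 76.0 were found for Cdca3, Cep55, Hmmr, Cenpa, Plk1, Kif20a, Racgap1 and Knstrn. Cenpa is the histone of the centromere, Plk1 a kinase of mitotic entry, and Kif20a, Cep55 and Racgap1 act at the cleavage furrow and midbody.

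Genes of DNA synthesis were also higher in cycling cells. 2810417H13Rik, which RefSeq lists under Pclaf, encodes a factor that binds PCNA and had 246 CPM in null PNX cycling cells against 2.94 CPM in non-cycling cells. Rrm2, the regulated subunit of ribonucleotide reductase, had 102 against 2.01 CPM. Tk1, thymidine kinase, had 105 against 7.81 CPM. Pcna, the clamp of DNA polymerase, had 89.1 CPM (76.0 to 104) in cycling and 28.8 CPM (25.9 to 31.8) in non-cycling cells of null PNX, 400 against 24.0 CPM in control PNX and 336 against 26.7 CPM in control sham. It was 24.3 CPM in non-cycling cells of null sham. Pcna was therefore near the same level in non-cycling cells of all 4 libraries and lower in cycling cells of null PNX than in those of control PNX.

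Of 17 histone and chromatin genes measured in null PNX, 11 were at least 2-fold higher and 0 lower, against 3.09% and 1.03% of all genes. The count favours genes high in cycling cells, since some, such as Hist1h2ap, passed the filter on their level there. The 28 in the table summed to 7616 against 2972 CPM. H2afz, a histone variant, had 2566 CPM in cycling and 672 CPM in non-cycling cells. It was seen in 99.2% of cycling and 93.4% of non-cycling cells, with medians of 25.3 and 5.74 UMIs per 10000. Hmgb2 and Hmgn2, which bind DNA and nucleosomes, were at 288 against 61.7 CPM and 360 against 72.5 CPM. The replication-dependent histone Hist1h2ap had 127 CPM in cycling and 2.40 CPM in non-cycling cells of null PNX, 1699 against 7.64 CPM in control PNX and 703 against 1.78 CPM in control sham. In control PNX 1 cell held 106 of its 174 UMIs, and the level without that cell was 730 CPM. Hist1h2al went the other way, at 10.3 against 43.9 CPM in null PNX. Histone genes of these clusters have near-identical copies among which reads may be split, so values of single copies are uncertain.

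Tubulins, the subunits of the spindle, and their regulators summed to 4705 CPM in cycling and 1964 CPM in non-cycling cells of null PNX. Of 13 measured genes 6 were at least 2-fold higher, against 3.09% of all genes. Stmn1, stathmin, which makes microtubules less stable, had 1208 CPM (1159 to 1259) in cycling and 165 CPM (158 to 172) in non-cycling cells of null PNX, 2002 against 81.7 CPM in control PNX and 2444 against 59.3 CPM in control sham, with 96.7 CPM in non-cycling cells of null sham. It was seen in 98.3% of null PNX cycling cells. Tuba1b was at 676 against 182 CPM, Tubb5 at 702 against 230 CPM and Tubb6 at 134 against 25.1 CPM in null PNX.

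Cyclins and kinases of G1, the phase before S phase, did not differ 2-fold in null PNX. Of 3 measured genes 0 were higher or lower, where 3.09% and 1.03% of all genes were. The 11 in the list summed to 458 CPM in cycling and 468 CPM in non-cycling cells. Ccnd1, cyclin D1, had 175 CPM (157 to 196) in cycling and 218 CPM (211 to 227) in non-cycling cells of null PNX, 186 against 137 CPM in control PNX and 244 against 59.1 CPM in control sham, with 137 CPM in non-cycling cells of null sham. Cdk4, its partner kinase, had 185 against 141 CPM in null PNX.

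Inhibitors of division and targets of p53 summed to 987 CPM in cycling and 1565 CPM in non-cycling cells of null PNX, a ratio of 0.631 (0.601 to 0.662). That ratio pools cells admitted by different marks, and ratios by mark are given further below. Of 12 measured genes 1 was at least 2-fold higher and 2 lower, against 3.09% and 1.03% of all genes. Cdkn1a, which encodes the kinase inhibitor p21, had 180 CPM (162 to 201) in cycling and 399 CPM (388 to 410) in non-cycling cells of null PNX, and 125, 52.4 and 88.3 CPM in non-cycling cells of control PNX, null sham and control sham. In cycling cells of control PNX it had 293 CPM and in control sham 61.1 CPM. Of its 30 UMIs in control PNX 16 were in the 2 cells whose sum came from Cenpf alone, and without them the level was 153 CPM (83.6 to 257). Both null PNX groups were thus above the non-cycling cells of the other libraries, and within null PNX the cycling cells had the lower level. Phlda3, a p53 target that restrains Akt signalling, had 39.4 against 128 CPM in null PNX. Ccng1, another p53 target, had 53.5 against 106 CPM. Cdkn2d, which encodes the inhibitor p19INK4d, was the higher one, at 53.5 against 17.0 CPM.

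Levels in null PNX were graded along the sum of the 10 genes for some genes outside the rule. Cdc20 had 529 CPM in cells with sums of 10 or more, 152 CPM with sums of 5 to 9, 18.3 CPM with sums of 1 to 4 and 8.04 CPM with a sum of 0. Rrm2 had 148, 32.4, 8.49 and 2.01 CPM in the same order. Cdkn1a had 159, 212, 391 and 399 CPM, so cells with 1 to 4 UMIs were near those with 0. Malat1 had 9006, 9733, 21800 and 28635 CPM. These bins are set by the counts of the rule, and depth and the sum rise together.

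Among the genes lowest in null PNX cycling cells the most abundant was Malat1, a long non-coding RNA kept in the nucleus. It had 9297 CPM in cycling and 28635 CPM in non-cycling cells of null PNX, 11623 against 17824 CPM in control PNX and 9136 against 20630 CPM in control sham, with 17825 CPM in non-cycling cells of null sham. Cycling cells were below non-cycling cells in each library that had both. The ratio in null PNX was 0.325 (0.320 to 0.330). Mxd4, a repressor that competes with Myc for Max, had 35.6 against 87.9 CPM in null PNX. Ogt, the transferase that adds N-acetylglucosamine to proteins, had 30.8 against 87.0 CPM. Others of the 15 lowest were Acoxl, Aox3, Cox6a2, Itih4, Hc, Ak1, Akap7, Azin2, PISD and Ttc3, at 10.3 to 23.8 CPM in cycling cells.

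Surfactant genes other than Sftpc were not used to admit cells. Sftpa1, surfactant protein A, had 17780 CPM in cycling and 21113 CPM in non-cycling cells of null PNX and 11662 against 22920 CPM in control PNX. Sftpb, surfactant protein B, had 15964 against 16638 CPM in null PNX and 7784 against 12861 CPM in control PNX. Both were thus below non-cycling cells in both PNX libraries, with ratios of 0.842 and 0.959 in null PNX and 0.509 and 0.605 in control PNX. The null PNX ratios pool cells admitted by different marks. Summed over AT2 genes other than Sftpc, the null PNX ratio was 0.846. By mark it was 1.29 with Cldn4 alone, 0.727 with both and 0.811 with Sftpc alone. In control PNX, where all cycling cells were admitted by Sftpc, it was 0.594, so the pooled ratios of the libraries do not compare like cells. Sftpc, whose level is set in part by admission, had 54447 CPM in cycling and 63387 CPM in non-cycling cells of null PNX, 75714 against 123402 CPM in control PNX and 48798 against 128779 CPM in control sham. It was 68590 CPM in non-cycling cells of null sham. Of 24 other AT2 genes measured in null PNX, 0 were at least 2-fold higher and 3 lower, against 3.09% and 1.03% of all genes. Their median log2 ratio was −0.32. Those 3 were Slc34a2, a phosphate carrier of AT2 cells, at 828 against 1691 CPM, Scd1, stearoyl-CoA desaturase, at 631 against 1374 CPM, and Hc, complement C5, at 13.5 against 37.6 CPM. Etv5, a transcription factor of AT2 cells, had 128 CPM in cycling and 146 CPM in non-cycling cells of null PNX and 254 against 380 CPM in control PNX. AT1 genes summed to 6421 against 6609 CPM in null PNX. Ager, which is high in AT1 cells, had 1180 against 1120 CPM, and Hopx, another AT1 gene, 11.9 against 36.5 CPM.

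Genes of the transitional state were shared between cycling and non-cycling cells of null PNX. Over the 27 genes in the table they summed to 24389 CPM in cycling and 24211 CPM in non-cycling cells. Of 23 measured 0 differed 2-fold in either direction, where 3.09% of all genes were higher and 1.03% lower. Krt8, a keratin of that state, had 2890 CPM (2814 to 2969) in cycling and 2328 CPM (2302 to 2355) in non-cycling cells of null PNX, 303 against 190 CPM in control PNX and 183 against 134 CPM in control sham, with 928 CPM in non-cycling cells of null sham. All 121 cycling cells of null PNX held a Krt8 UMI, against 7 of 15 in control PNX. Shares in non-cycling cells were near these, at 98.7% in null PNX and 47.1% in control PNX. The cycling cells had median depths of 13737 and 6105 UMIs, and deeper cells hold at least 1 UMI more easily. Cyr61, a target of YAP and TAZ, had 185 against 206 CPM in null PNX. Of its 343 UMIs in null PNX cycling cells 92 were in the 2 cells whose sum came from Cenpf alone. Without those 2 cells it had 138 CPM, a ratio of 0.671 (0.587 to 0.764). In control PNX it had 29.3 against 8.91 CPM, on 3 UMIs in cycling cells.

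The admission clause changed this picture for Cldn4, a tight-junction gene of the transitional state. In null PNX 54 cycling cells were admitted by Sftpc alone, 56 by both marks and 11 by Cldn4 alone, while all cycling cells of control PNX and control sham were admitted by Sftpc with 0 UMIs of Cldn4. Over all admitted cells of null PNX Cldn4 had 251 CPM in cycling and 378 CPM in non-cycling cells. Among cells admitted by Sftpc the order was the reverse, at 223 against 121 CPM, and 56 of 110 cycling cells (50.9%, 41.2 to 60.6) held Cldn4 UMIs against 335 of 959 non-cycling cells (34.9%, 31.9 to 38.0). Thinned to 2500 UMIs the shares were 26.4% (18.4 to 35.6) and 16.1% (13.8 to 18.5). Lymphocytes of null PNX, which should lack Cldn4, held it in 17 of 122 cells (13.9%, 8.33 to 21.4) at a median of 3650 UMIs. The thinned share of non-cycling cells lies inside that interval and that of cycling cells overlaps it, so neither is read as expression per cell. The lymphocyte share was not thinned, so the depths differ. Lymphocytes with Cldn4 and 0 UMIs of Ptprc, Pecam1 and Col1a2 met the alveolar rule and are not in it, so it is a rough mark of background. In control PNX 0 of 15 cycling cells held Cldn4, which by the 3-cell floor allows a share of up to 20% of cells with a UMI at their median of 6105 UMIs, with an exact interval that reaches 21.8%, and 2 of 1884 non-cycling cells did (0.106%).

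Cells admitted by Cldn4 alone were 9.09% of cycling (4.63 to 15.7) and 24.0% of non-cycling cells (21.7 to 26.5) of null PNX, so several contrasts were taken within each way of admission. Cycling cells were 11 of 424 cells admitted by Cldn4 alone (2.59%, 1.30 to 4.59), 56 of 574 admitted by both (9.76%, 7.45 to 12.5) and 54 of 860 admitted by Sftpc alone (6.28%, 4.75 to 8.11). Thinned, these shares were 2.36%, 6.62% and 6.28%, so at equal depth the intervals of the classes with Sftpc overlapped; which class a cell fell in was set at full depth. Transitional genes summed to 50403 CPM in cycling and 51588 CPM in non-cycling cells admitted by Cldn4 alone, 26499 against 21575 CPM with both marks, and 14670 against 12300 CPM with Sftpc alone. They were therefore 1.19 to 1.23 times as high in cycling cells with Sftpc, which the sum over all cells did not show.

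Several differences held within each way of admission, but the class with Cldn4 alone was small and mixed. Of its 11 cycling cells, 2 rest on Cenpf alone and 1 held all 129 UMIs of the basal keratin Krt15. Its non-cycling cells had 20127 CPM of the airway secretory gene Scgb1a1, against 948 CPM with both marks and 2343 CPM with Sftpc alone. Malat1 ratios were 0.323 with Cldn4 alone, 0.276 with both and 0.499 with Sftpc alone. Cdkn1a had 288 against 833 CPM, 186 against 338 CPM and 144 against 224 CPM in the same order, and Phlda3 76.5 against 274 CPM, 44.6 against 116 CPM and 22.3 against 61.9 CPM. The whole list of inhibitors and p53 targets had summed ratios of 0.458, 0.728 and 0.791. Slc34a2 ratios were 0.615, 0.421 and 0.487. Atf3, a stress-induced transcription factor that was 2.36 times as high over all cells, had ratios of 2.41, 2.24 and 3.72. Others did not hold. Sftpc was 1.28 times as high in cycling cells with Cldn4 alone and 0.719 and 0.822 times as high in the other classes. Areg, amphiregulin, an EGF receptor ligand, had ratios of 0.583, 1.45 and 2.33. Those of Fn1, fibronectin, were 0.152 (0.0557 to 0.333), 0.560 (0.288 to 1.004) and 1.65 (0.809 to 3.08). They rest on 6, 13 and 12 cycling UMIs, and the intervals of both classes with Sftpc include 1. Over all cells Fn1 had 16.7 against 64.9 CPM.

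**Figure D3:**
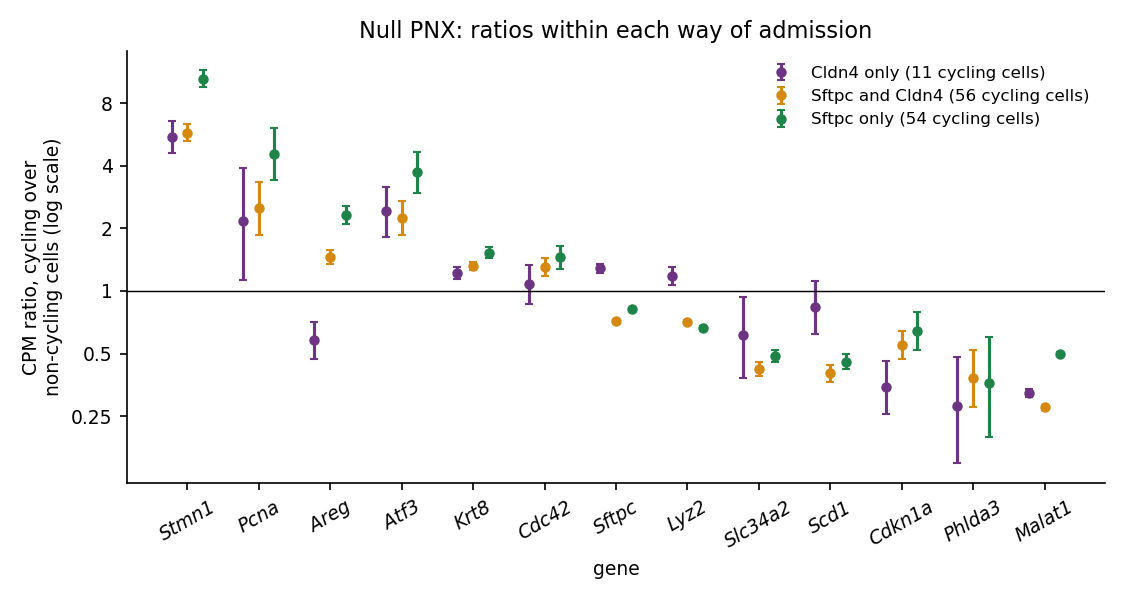
Ratio of CPM, cycling over non-cycling cells of null PNX (y axis, log scale), for 13 genes (x axis) within cells admitted by Cldn4 alone, by both marks or by Sftpc alone, with exact binomial 95% intervals. Malat1, Cdkn1a and Phlda3 lie below 1 in each class, Stmn1 and Atf3 above 1, and Areg and Sftpc on both sides.

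Metabolic and growth lists differed by less than 2-fold as a whole in null PNX. Ribosome and translation genes had a median log2 ratio of 0.31, nucleotide and one-carbon synthesis 0.35, oxidative phosphorylation 0.27, cholesterol synthesis 0.32 and glycolysis 0.17, each above the 0.06 of all genes. Gapdh, of glycolysis, had 1717 against 1058 CPM and Eif4e, the cap-binding factor, 136 against 76.7 CPM. Impdh2, of guanine nucleotide synthesis, had 132 against 57.1 CPM, and Umps, of pyrimidine synthesis, 28.1 against 13.8 CPM. Fatty acid synthesis summed lower, at 2949 against 4558 CPM, with Fasn at 204 against 391 CPM and Elovl1 at 654 against 1141 CPM. Actin genes summed to 54749 against 48000 CPM, with Actg1 at 6884 against 4605 CPM and Tpm4 at 687 against 445 CPM. Of the immediate-early and heat-shock genes 1 of 23 measured, Atf3, was 2-fold higher, against 3.09% of all genes. Hsp90aa1 was at 777 against 395 CPM.

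Summed markers of other cell types in cycling cells of null PNX lay below or near those in non-cycling cells. The 15 macrophage and monocyte markers other than Lyz2, which AT2 cells express, summed to 167 CPM in cycling and 256 CPM in non-cycling cells of null PNX, with Mrc1 and Adgre1 at 0 in cycling cells. T and NK markers summed to 22.7 against 20.6 CPM, B-cell markers to 32.9 against 28.2 CPM and neutrophil markers to 78.8 against 139 CPM. Of 9 endothelial markers 7 were at 0 in cycling cells, Cdh5 and Kdr among them, and of 11 fibroblast and muscle markers 6, Pdgfra and Pdgfrb among them. The endothelial markers summed to 23.2 against 29.8 CPM, with Egfl7 alone at 22.7 against 24.7 CPM. Fibroblast and muscle markers summed to 22.1 against 24.96 CPM. The ratios were 0.780 (0.555 to 1.07) and 0.887 (0.624 to 1.23), and both intervals include 1. At such low levels, and with 0 UMIs of Pecam1 and Col1a2 asked for at admission, the zeros show little. No cycling cell of null PNX exceeded 6.85 UMIs per 10000 of the T and NK, macrophage, endothelial or fibroblast lists. The highest cell had 11.02 UMIs per 10000 of the neutrophil list, 51.1 of the ciliated list and 621 of the club list. Ciliated markers summed to 209 against 316 CPM, with 0 of 8 at 0 in cycling cells. Club-cell markers summed to 2190 against 6801 CPM, led by the secretory gene Scgb1a1 at 1506 against 5930 CPM. Its medians per cell were 9.15 and 8.95 UMIs per 10000 and 1 non-cycling cell held 28.7% of that group's UMIs, and without the highest cell of each group the levels were 958 against 4243 CPM. Of 582 Scgb3a2 UMIs in null PNX cycling cells 558 were in 1 cell, and all 129 UMIs of the basal keratin Krt15 were in 1 cell. The Krt15 cell had 28102 UMIs, Sftpc at 0.278% of them and 4 Cldn4 UMIs, so it was admitted by Cldn4 alone. It was also the cycling cell highest in Scgb1a1, with 1043 UMIs, or 371 per 10000. The rule thus let in at least 1 cell high in airway markers. Whether cells of other types contributed to the differences was not tested.

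In control PNX the 15 cycling cells summed to 102386 UMIs, against 1852324 in null PNX, and the contrast with non-cycling cells was correspondingly noisy. Of 5039 genes 1277 were at least 2-fold higher (25.3%) and 229 lower (4.54%), and the median log2 ratio of all genes was 0.43. In cycling against non-cycling cells, S-phase genes summed to 3848 CPM (3478 to 4248) against 310 CPM and mitosis genes outside the rule to 5128 CPM (4698 to 5586) against 108 CPM. All 33 S-phase and all 34 mitosis genes measured were at least 2-fold higher. As in null PNX, these counts favour genes high in cycling cells, since most passed the filter on their level there. AT2 genes had a median log2 ratio of −0.63, with Lyz2 at 10441 against 20347 CPM and Slc34a2 at 2549 against 4412 CPM. Transitional genes had a median of 1.39 and 10 of 18 were at least 2-fold higher, but 195 of their 616 UMIs were in the 2 cells whose sum came from Cenpf alone. Without those 2 cells the median was 0.68 and 9 of 19 were at least 2-fold higher. Lgals3, galectin-3, had 781 CPM in all cycling cells and 557 CPM without the 2, against 156 CPM in non-cycling cells. Sprr1a, a cornified-envelope gene, was at 254 against 1.27 CPM, and 19 of its 26 UMIs were in the 2 cells, without which it had 76.5 CPM. The other 7 UMIs were all in 1 cell, so this is not a level of the group. The 3 cycling cells of control sham had 4431 CPM of S-phase and 6081 CPM of mitosis genes, against 255 and 118 CPM in non-cycling cells.

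**Figure D4:**
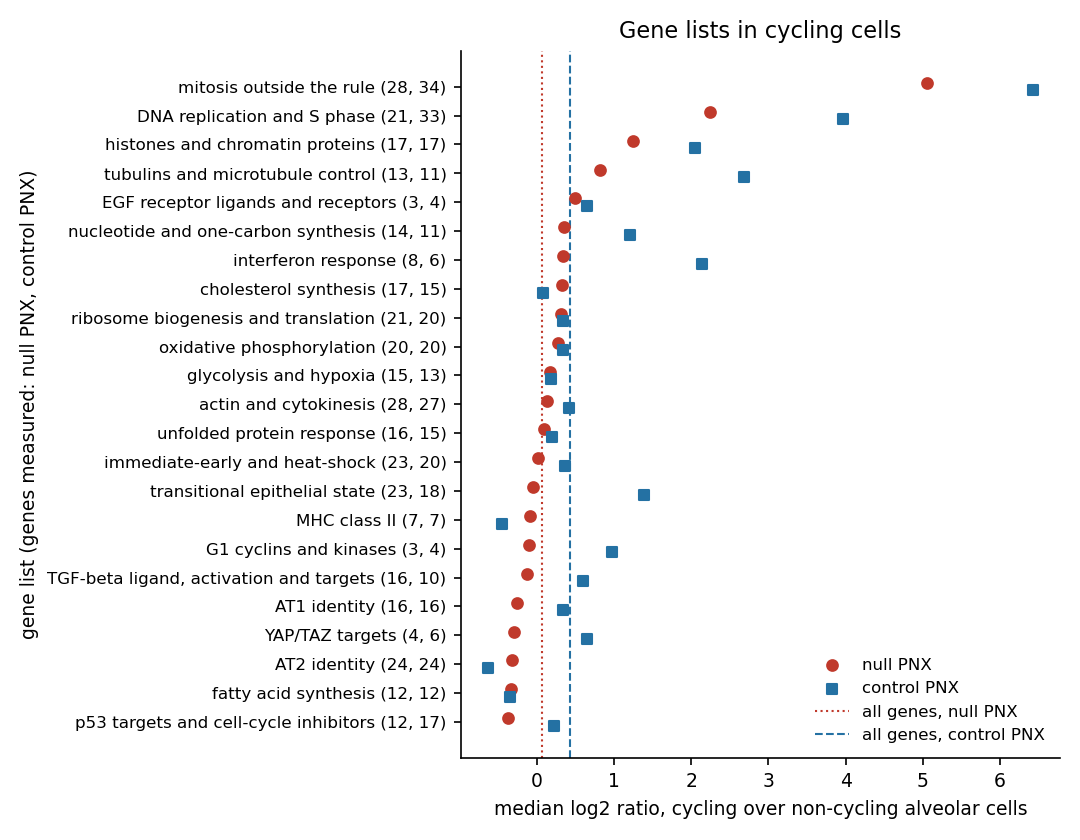
Median log2 ratio, cycling over non-cycling alveolar cells (x axis), of each gene list (y axis, with the number of genes measured in null PNX and in control PNX); vertical lines give the median of all genes, 0.06 in null PNX and 0.43 in control PNX. Mitosis and S-phase lists stand highest in both, at 5.06 and 2.24 in null PNX.

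Cycling cells of null PNX were then set beside those of control PNX. Of 5284 genes 733 were at least 2-fold higher (13.9%) and 1095 lower (20.7%). Transitional genes summed to 24389 CPM in null PNX and 6016 CPM in control PNX, a ratio of 4.05 (3.74 to 4.40), and of 22 measured 19 were at least 2-fold higher and 1, Sprr1a, lower. The Sprr1a level of control PNX came from 26 UMIs in 2 cells. Without the 4 cells that rest on Cenpf alone the ratio was 5.19 (4.71 to 5.72). Krt8 was at 2890 against 303 CPM. In non-cycling cells the same list had 24211 CPM in null PNX and 2941 CPM in control PNX, and there 730 of 4998 genes were at least 2-fold higher (14.6%) and 252 lower (5.04%). Per cell, transitional genes in cycling cells ranged from 63.6 to 824 UMIs per 10000 in null PNX and from 9.23 to 296 in control PNX, where the upper quartile was 50.6. The highest control PNX cell was 1 of the 2 that rest on Cenpf alone, and without them the highest was 133, so the ranges still overlapped. AT2 genes other than Sftpc summed to 71515 CPM in null PNX and 57860 CPM in control PNX, while their median log2 ratio was −0.44. Lyz2 was at 14158 against 10441 CPM. Of 24 measured, 3 were at least 2-fold higher in null PNX, Mlc1, Napsa and Sftpb. The 5 genes at least 2-fold lower included Slc34a2 (828 against 2549 CPM) and Scd1 (631 against 2549 CPM). In non-cycling cells 7 AT2 genes were at least 2-fold lower in null PNX, Slc34a2 and Scd1 among them, so this was not particular to cycling cells. Depth, library and genotype cannot be told apart here.

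Mitosis genes had more UMIs than S-phase genes in the cycling cells of each library that had them. The ratio of mitosis to S-phase UMIs was 2.20 (2.11 to 2.29) in null PNX, 1.33 (1.17 to 1.52) in control PNX and 1.37 (1.10 to 1.71) in control sham. Among cells with sums of 10 or more of the 10 genes it was 2.41 in null PNX and 2.27 in control PNX, and among those with sums of 5 to 9 it was 1.57 and 0.528, so the libraries were apart mainly at low sums, where control PNX had 7 cells. More S-phase than mitosis UMIs were counted in 24 of 121 null PNX cells (19.8%, 13.1 to 28.1), in 8 of 15 control PNX cells (53.3%, 26.6 to 78.7) and in 1 of 3 control sham cells. The intervals of the PNX libraries overlapped. Thinned to 2500 UMIs the counts were 27 of 121 (22.3%, 15.2 to 30.8) and 7 of 15 (46.7%, 21.3 to 73.4), again with overlapping intervals. The median cell had 10.6 UMIs per 10000 of S-phase genes in null PNX and 45.9 in control PNX, and 37.5 and 37.8 of mitosis genes. The rule names mostly genes of G2 and mitosis, and it was not built to count cells early in S phase.

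**Figure D5:**
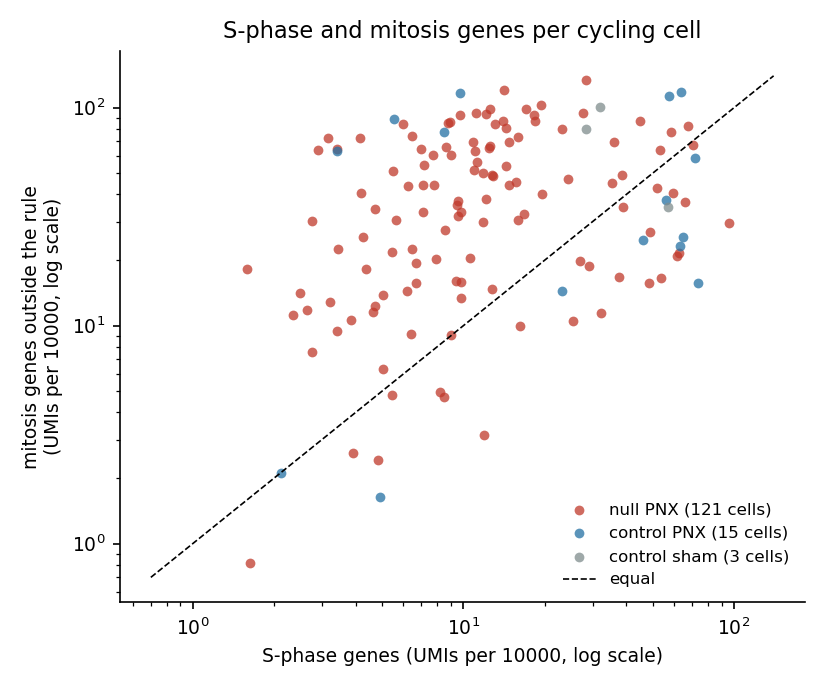
S-phase genes (x axis) against mitosis genes outside the rule (y axis) in each cycling cell, as UMIs per 10000 on log scales; points are cells of null PNX, control PNX and control sham, and the dashed line marks equal levels. Of the 121 null PNX cells 24 lie below the line.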

How the data were processed

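Per the labels' protocols, GFP+ cells of 4 groups were sorted and made into 10x Genomics 3′ libraries, 1 per group. The authors deposited 1 table of UMI counts, not normalized, for 17117 genes and 10077 cells. The submitters' processing notes name mm10 as the build and list Seurat 2.3.4 and Cell Ranger 2.1.0. The sources used here give neither the annotation release nor any treatment of doublets. Libraries were read from the barcode endings, per the labels. Null PNX held 24897537 UMIs, control PNX 11233796, null sham 17828596 and control sham 9868802.

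UMIs were summed over cycling and over non-cycling cells of a library and scaled to CPM with Python 3.11.15 and scipy 1.17.1. Levels have exact Poisson intervals, ratios exact binomial ones and shares Clopper-Pearson ones. No test was run because each group is 1 library, and called means at least 2-fold among genes with a mean of at least 20 CPM. A count of 0.5 was added for log2 ratios only. Thinning was without replacement, with a fixed seed. The ratio step was tested on simulated data. The count of 0 is bounded by 3 counts. Named genes were the 10 of the rule, the 15 highest and 15 lowest ratios in null PNX seen in at least 20% of cells with no cell over 20% of UMIs, the 4 largest differences of each list, and 12 fixed genes. Lgals3, Sftpa1, Sftpb, H2afz, Krt15 and promoter genes were added after their values were seen. The members, the lists and the rules were chosen with earlier results of these data known. Of the named genes, 1 is not reported here.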

Additional observations from a re-analysis of the deposited data

Results flagged for a closer look

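Inhibitors and p53 targets lay on opposite sides of 1 in the PNX libraries over all cycling cells, with a summed cycling over non-cycling ratio of 0.631 (0.601 to 0.662) in null PNX and 1.38 (1.14 to 1.65) in control PNX. Cdkn1a led this, at a ratio of 0.452 in null PNX and 2.35 in control PNX, where 30 UMIs in 9 cells were counted, 16 of them in 2 cells whose sum came from Cenpf alone. Without those 2 cells Cdkn1a had 153 CPM in cycling cells against 125 CPM in non-cycling cells of control PNX, a ratio of 1.23 (0.668 to 2.06), and the p53 list a ratio of 0.960 (0.751 to 1.21). Both intervals include 1. Within null PNX the ratio of the p53 list was 0.458 in cells admitted by Cldn4 alone and 0.728 with both marks. With Sftpc alone, the mark of all control PNX cycling cells, it was 0.791 (0.726 to 0.861), nearer to 1 than the 0.631 over all cells. YAP/TAZ targets had summed ratios of 0.929 in null PNX and 1.36 in control PNX. Without the 2 cells the control PNX ratio was 1.31 (0.957 to 1.76), and without the 2 such cells of null PNX the ratio there was 0.860 (0.807 to 0.915). Hopx, an AT1 gene, had ratios of 0.326 in null PNX and 3.28 in control PNX, the control PNX ratio resting on 11 UMIs and being 2.00 (0.728 to 4.40) without the 2 cells. The differences between the libraries were not tested, and the median log2 ratio of all genes was 0.06 in null PNX and 0.43 in control PNX.

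Cells outside the alveolar rule, which entered no contrast of cycling with non-cycling cells, also reached a sum of 5 or more of the 10 genes, in 25 of 512 cells of null PNX (4.88%, 3.18 to 7.12), against 4 of 280 in control PNX (1.43%), 7 of 714 in null sham (0.980%) and 6 of 442 in control sham (1.36%). The interval of null PNX lay above those of null sham (0.395 to 2.01) and control sham (0.4998 to 2.93) and overlapped that of control PNX (0.391 to 3.62).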

How the results depend on the processing

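Of 44 alternative settings of the share of cycling cells 41 left it within its interval. It was 9.63% at a sum of at least 3 and 3.34% at 10 in null PNX, and 0.406% at 10 in control PNX. In the order null PNX, control PNX, null sham, control sham, the share was 9.74%, 1.96%, 0.690% and 0.929% at 1500 UMIs and a sum of at least 1, and 14.9%, 2.49%, 1.31% and 1.95% at 2500 UMIs and 1; at a sum of 3 it was 3.55% in null PNX. Null PNX was highest under each. Genes at least 2-fold higher and lower in null PNX numbered 2353 and 1250 with no filter on CPM, 71 and 18 at 50 CPM, 243 and 92 at a sum of 10, and 453 and 311 at 1.5-fold. The lower ones numbered 85 with per-cell CPM and 88 without the deepest cells. In control PNX genes higher and lower numbered 7313 and 834 with no filter, 450 and 70 at 50 CPM, and 2128 and 482 at 1.5-fold. S-phase and mitosis genes higher numbered 98 with no filter and 18 at 50 CPM in null PNX, and 30 at 50 CPM in control PNX. Fewer or more genes tested follow from the filter, and other causes were not tested. Of 1677 values of named genes 3 turned sign in null PNX: Scgb3a1, at log2 0.062 in a matched depth band and 0.12 with Sftpc-admitted cells only, and Ctss, at 0.10 with those cells. Cldn4-positive shares with Sftpc in null PNX were 26.4% of cycling and 16.1% of non-cycling cells when thinned, 35.5% and 15.3% at 2 UMIs, and 38.3% of non-cycling cells in the depth band; non-cycling cells gave 0% in control PNX at 2 UMIs, and in null sham 0.959% thinned and 0.314% at 2 UMIs. Null PNX over control PNX in cycling cells, AT2 genes had a ratio of 1.49 at a sum of 10, and 1.33 with Sftpc-admitted cells only. Transitional genes had 2.67 at a sum of 10, and 3.62 with Sftpc-admitted cells 4.94 with at least 3 of the 10 genes seen and 5.19 without cells with only 1 of them seen. The last settings were added after seeing the data. No paired analysis was possible because each group is 1 library, which also leaves no replicate to omit. The 15 cycling cells of control PNX limit every contrast that uses them.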
